A study of Mus musculus with 6 samples.

Results

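Notch receptors and their ligands were followed in cultured mesenchymal cells of the mouse small intestine, the connective tissue and muscle-lineage cells beneath the gut epithelium. The members are the rows of 9 gene symbols in the deposited tables, which hold 23329 genes in all. There are 4 receptors (Notch1 to Notch4) and 5 ligand genes (Jag1, Jag2, Dll1, Dll4 and Dlk2), and every symbol had a row in each of the 6 libraries. RNA was sequenced from 3 cultures of embryos at embryonic day 14.5 (E14.5) and 3 cultures of adult mice. Both groups were C57 mice with no allele or treatment named. The labels give no embryo count, sex or adult age, and do not say whether a culture pooled animals. All cells were depleted of epithelium, dissociated with collagenase and dispase, and grown in serum with the ROCK inhibitor Y27632 for a few passages. Adult gut was first scraped free of villi and embryonic gut was cut up, so tissue handling differed along with age. The deposited tables also carry the letters PBS in their names, which the labels do not explain. The labels do not say whether replicate cultures of 1 age derive from different animals, so the p-values measure only the spread between these cultures, which may be technical.

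Notch signalling passes between touching cells. A ligand of the Jagged or Delta-like type on one cell pulls on a receptor of its neighbour, the receptor is cut by ADAM proteases and gamma-secretase, and its freed intracellular part joins RBPJ and Mastermind-like proteins in the nucleus to switch on Hes and Hey genes. Notch2 is widely made by mesenchymal cells, Notch3 is known from pericytes and vascular smooth muscle, and Notch4 and Dll4 are known from endothelium. Dlk2 is a relative of Dlk1, the stromal factor named in the title of the series, and lacks the DSL domain through which canonical ligands bind receptors, so it counts as a non-canonical ligand.

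Gene counts per library ranged from 18850224 to 32672370, and the shallowest was adult replicate 2. The label of mesenchyme was checked against 10 markers such as Col1a1 and Vim, which were all detected and summed to 35600 to 47300 CPM (normalised read counts, scaled to library size with TMM) in E14.5 cultures and 29800 to 46600 CPM in adult cultures. Most of that sum came from Fn1, Col1a1 and Sparc. Pdgfra, also on the list, had 2.47 to 4.45 CPM in E14.5 cultures and 29.45 to 80.95 CPM in adult cultures. The sum of 10 smooth muscle markers was 25500 to 36900 CPM in E14.5 cultures and 19100 to 30500 CPM in adult cultures. The sum of 10 epithelial markers was 46.7 to 141 CPM in E14.5 cultures and 63.9 to 132 CPM in adult cultures. Almost all of that sum came from the keratins Krt8 (4.33 to 16.1 CPM in E14.5 cultures and 5.26 to 33.8 CPM in adults), Krt18 (16.9 to 77.5 CPM in E14.5 cultures and 48.5 to 83.7 CPM in adults) and Krt20 (24.4 to 61.4 CPM in E14.5 cultures and 9.09 to 13.8 CPM in adults). Fabp2 had 0 counts, and Epcam lay at 0.124 CPM or less in E14.5 and 0.141 CPM or less in adults. Some libraries stood apart in markers of other cells. Of 18 endothelial markers, 16 were highest in adult replicate 2, and all 15 leukocyte markers were highest in E14.5 replicate 3. The endothelial sum was 206, 72.1 and 190 CPM across E14.5 replicates 1, 2 and 3, and 256, 2873 and 847 CPM in adult replicates 1, 2 and 3. In E14.5 libraries the endothelial genes Cldn5 and Robo4 had 0 counts. The leukocyte sum was 301 to 3430 CPM in E14.5 cultures and 26.9 to 225 CPM in adult cultures.

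**Figure D1:**
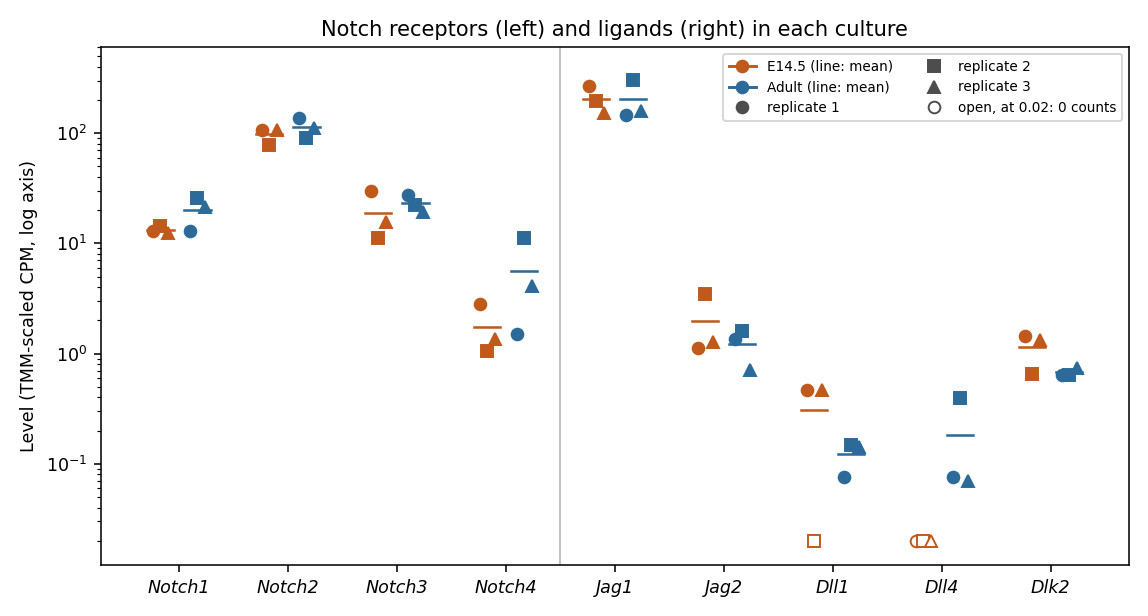
Level of each Notch receptor and ligand gene in the 6 libraries, in CPM on a log axis, with E14.5 cultures left of adult cultures for each gene, 1 symbol per replicate and a line at each group mean. Jag1 and Notch2 lie highest in both groups, and the E14.5 and adult points overlap for every gene but Dll4, which had 0 counts in all 3 E14.5 libraries.

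Among the 9 members, Jag1 was the most abundant ligand transcript and Notch2 the most abundant receptor transcript at both ages, and none of the 7 members that passed the filter on low counts differed between E14.5 and adult cultures by the edgeR quasi-likelihood test. The filter left out Dll1 and Dll4, whose counts were near 0. Over all 13478 genes tested, 1.08% passed the same test at an adjusted p of 0.05. At an unadjusted p under 0.05 the count of members was also 0, where 17.9% of all tested genes lay. DESeq2 called 0 members against 10.6% of all genes, and limma-voom called 0 against 0.927%. The E14.5 and adult ranges overlapped for all 7 tested members, while 24.1% of all tested genes had ranges that did not overlap. Among the tested members the 4 receptors all had negative log2 fold changes (E14.5 over adult) and the 3 ligands positive ones, with a median of -0.21 over the 7. The median over all tested genes was 0.01. The intervals below show which differences these 6 libraries could still hold.

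Levels were compared between genes per kilobase of exon, with exon lengths of the GENCODE M21 annotation. Per length, Jag1 stood first with 36.4 ± 10.4 CPM per kb in E14.5 and 36.1 ± 15.5 CPM per kb in adult cultures (SD, n = 3 each). Notch2 came next, with 9.28 ± 1.57 CPM per kb in E14.5 and 10.7 ± 2.20 CPM per kb in adults. In both groups the range of Jag1 lay wholly above that of Notch2, and the range of Notch2 wholly above that of Notch3. Notch3 (2.35 ± 1.22 CPM per kb in E14.5, 2.87 ± 0.515 in adults) and Notch1 (1.40 ± 0.101 in E14.5, 2.10 ± 0.686 in adults) were neighbours whose ranges overlapped at both ages. In E14.5 cultures Dlk2, Jag2 and Notch4 followed, at 0.539, 0.385 and 0.266 CPM per kb, each with a range overlapping that of the next. In adult cultures the order after Notch1 was Notch4, Dlk2 and Jag2, at 0.852, 0.320 and 0.239 CPM per kb, also with overlapping ranges between neighbours. Dll1 and Dll4 came last in both groups, below 0.11 CPM per kb in every adult library and at most at 0.131 CPM per kb in E14.5 libraries. Among the 12206 tested genes with a single annotated exon length, mean levels per kb placed Jag1 above 86.2% and Notch2 above 60.1% of genes, but Notch4 above only 11.5% and Jag2 above 6.73%.

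Notch2, a receptor encoded on chromosome 3 (98013527 to 98150361, plus strand, mm10, as for all positions given here), had the smallest span over the 6 libraries among the members, 0.80 on the log2 scale. It had 106, 78.4 and 108 CPM across E14.5 replicates 1, 2 and 3, and 136, 90.4 and 111 CPM in adult replicates 1, 2 and 3. The second replicate was the lowest of each group, and the groups overlapped. Its log2 fold change was -0.21 (SE 0.20, 95% interval -0.69 to 0.27, adjusted p = 0.677, edgeR), which leaves room for a level in E14.5 between 0.620 and 1.21 times that of adults.

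Notch2 made up most of the receptor transcripts per length in each library, with a share of 64.7%, 71.0% and 74.8% in the E14.5 libraries and of 72.2%, 54.5% and 66.7% in the adult libraries. The share of Notch3 was 17.0% ± 5.89 in E14.5 and 17.3% ± 1.95 in adults (SD, n = 3 each). That of Notch1 was 10.9% ± 3.03 in E14.5 and 12.9% ± 4.91 in adults. Notch4 held 1.51% to 2.76% in E14.5 libraries and 1.28%, 10.8% and 3.94% in adult replicates 1, 2 and 3, so its large share was a feature of adult replicate 2. The summed receptor level was 15.7, 10.5 and 13.7 CPM per kb in E14.5 replicates 1, 2 and 3, and 18, 15.8 and 15.8 CPM per kb in adult replicates 1, 2 and 3. As a sum chosen after the receptors' values were known, it is given without a test.

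**Figure D2:**
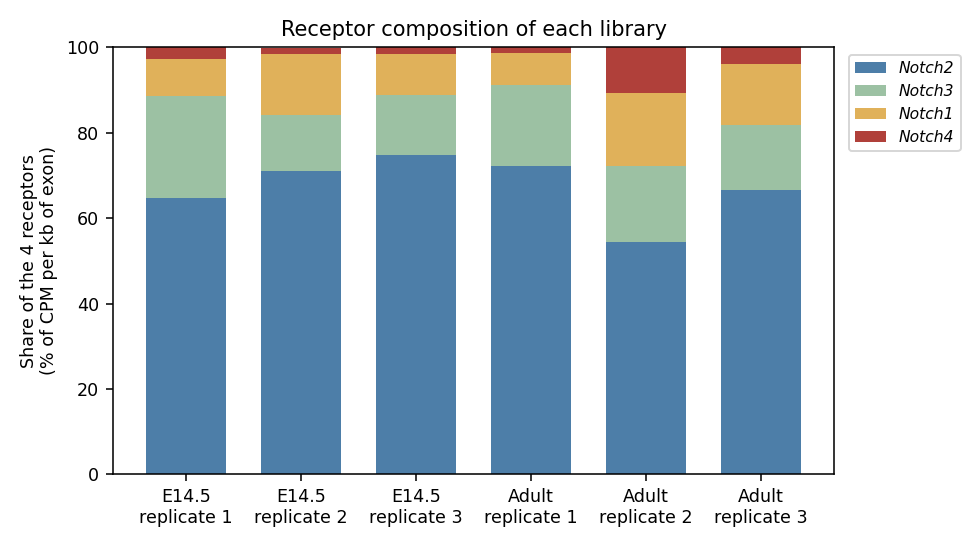
Share of each of the 4 Notch receptors in the receptor transcripts of each library, in percent of CPM per kb of exon, with the 3 E14.5 libraries on the left and the 3 adult libraries on the right. Notch2 fills 54.5% to 74.8% of every bar, and Notch4 reaches 10.8% in adult replicate 2 only.

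Notch1, a receptor used in many tissues, lies on chromosome 2 from 26457903 to 26516663 on the minus strand. It had 12.9, 14.3 and 12.5 CPM across E14.5 replicates 1, 2 and 3, and 12.9, 25.7 and 21.3 CPM in adult replicates 1, 2 and 3. Adult replicate 1 thus lay within the E14.5 range, and adult replicates 2 and 3 lay above it. In log2 terms the difference was -0.59 (SE 0.26, 95% interval -1.22 to 0.04, adjusted p = 0.312, edgeR). Without adult replicates 2 and 3, the libraries highest in endothelial markers, it was 0.03, in a fit whose single adult library is assumed to vary like the E14.5 ones. Leaving out adult replicate 2 alone gave -0.37.

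Notch4, the receptor typical of endothelium, had the widest spread. It lies on chromosome 17 from 34564268 to 34588503 on the plus strand, and its level was 2.85, 1.06 and 1.36 CPM in E14.5 replicates 1, 2 and 3, against 1.51, 11.2 and 4.11 CPM in adult replicates 1, 2 and 3. Adult replicates 2 and 3 were the highest of the 6 libraries, in the same order as in the sum of endothelial markers, while adult replicate 1 lay among the E14.5 libraries. A log2 fold change of -1.67 (SE 0.79, 95% interval -3.58 to 0.24) did not pass the edgeR test (adjusted p = 0.341). It was -0.69 without adult replicate 2 and 0.21 without adult replicates 2 and 3. In bulk cultures, fewer cells of a type and less RNA per cell cannot be told apart.

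The endothelial genes Pecam1 and Cdh5 showed the same pair of libraries, but not every marker of the list did. Kdr had 7.63 to 12.4 CPM in E14.5 cultures and 15.5, 14.2 and 17.3 CPM in adult replicates 1, 2 and 3. Vwf was highest in E14.5 replicate 3, at 13.6 CPM. Of the 18 markers, 16 were highest in adult replicate 2. Pecam1, an adhesion molecule of endothelium and leukocytes, had 0.438, 0.714 and 0.463 CPM among E14.5 cultures and 0.947, 444 and 81.5 CPM in the adult libraries. Cdh5, which encodes the endothelial cadherin, was at 0.155 CPM or less in E14.5 libraries and at 0.909, 255 and 82.0 CPM in adult replicates 1, 2 and 3. Notch4 was detected in all libraries, including the E14.5 ones where Pecam1 stayed below 1 CPM. Of these, E14.5 replicate 1 was the highest for Notch4 and for some endothelial markers, such as Emcn and Flt1, but not for others. Cdh5 was lowest there, at 0.0313 CPM, Pecam1 was highest in E14.5 replicate 2, and Erg and Ptprb in E14.5 replicate 3. Emcn had 22.5, 0.53 and 0.22 CPM in E14.5 replicates 1, 2 and 3. Flt1 had 25.9, 2.61 and 8.96 CPM there, and 7.19, 27.1 and 21.4 CPM in adult replicates 1, 2 and 3. The part of endothelial cells in the Notch4 and Notch1 levels was not tested. The values without adult replicates 2 and 3 do not test it either, since those are the adult libraries where both genes were high.

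**Figure D3:**
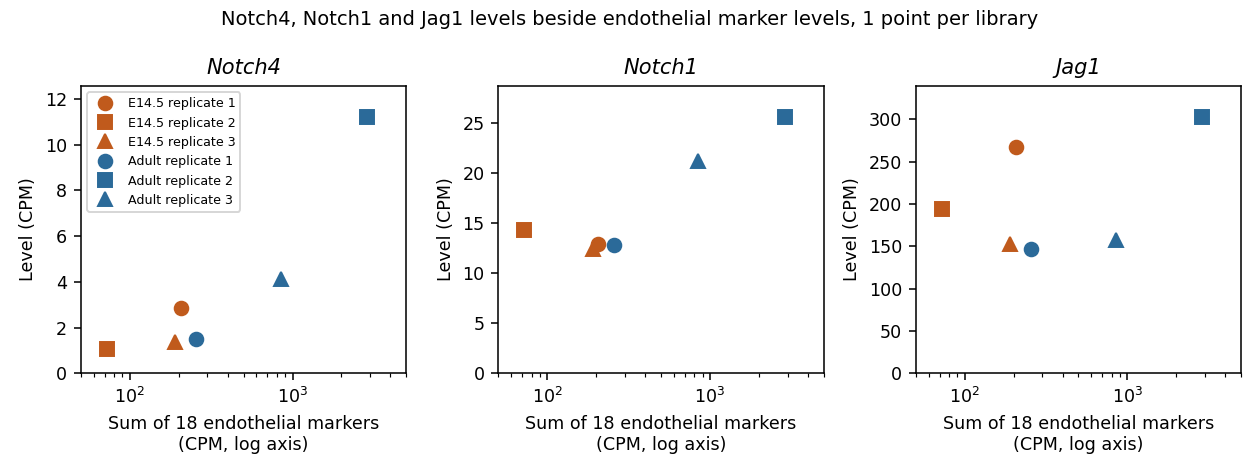
Levels of Notch4, Notch1 and Jag1 in CPM against the sum of 18 endothelial markers in CPM on a log axis, 1 point per library, with E14.5 and adult cultures in different colours. For Notch4 and Notch1 adult replicates 2 and 3 lie at the upper right. For Jag1 adult replicate 2 is also the highest, at 303 CPM. Adult replicate 3, at 158 CPM, lies within the Jag1 range of the libraries with lower endothelial sums.

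Dll4, the Delta-like ligand of sprouting vessels, lies on chromosome 2 from 119325784 to 119335962 on the plus strand and was at the limit of detection. It had 0 counts in each E14.5 library, and 2, 8 and 2 counts in adult replicates 1, 2 and 3. A count of 0 over the E14.5 group allows a level of up to 0.0311 CPM, taking 3 counts over the group as the limit, which covers counting error only. The adult libraries pooled to 0.160 CPM, which is 5.15 times that limit. Without adult replicate 2, which held 8 of the 12 counts, the pooled adult level was 2.35 times the limit. The adult side of these ratios carries no counting error and no spread between cultures, so neither ratio is a smallest possible difference. In the edgeR fit with no filter on low counts, the adjusted p of Dll4 was 0.214.

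Adult replicates 2 and 3 were the highest libraries for Notch4 and Notch1, and adult replicate 2 for Dll4. The regions before the RefSeq start sites of Notch4 and Dll4 are therefore shown, 5′ to 3′ on the plus strand of GRCm38.p6, up to the first base of the gene in GENCODE M21. Capitals mark the ETS core, here taken only as AGGAAG or CGGAAG on either strand, a sequence bound by ETS factors such as the endothelial factor Erg. The windows are chr17:34564045-34564267 for Notch4 and chr2:119325534-119325783 for Dll4.
Notch4: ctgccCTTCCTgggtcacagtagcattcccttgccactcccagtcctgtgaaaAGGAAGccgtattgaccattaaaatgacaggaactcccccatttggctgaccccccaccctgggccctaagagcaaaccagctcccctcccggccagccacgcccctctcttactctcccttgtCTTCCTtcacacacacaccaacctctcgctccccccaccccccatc
Dll4: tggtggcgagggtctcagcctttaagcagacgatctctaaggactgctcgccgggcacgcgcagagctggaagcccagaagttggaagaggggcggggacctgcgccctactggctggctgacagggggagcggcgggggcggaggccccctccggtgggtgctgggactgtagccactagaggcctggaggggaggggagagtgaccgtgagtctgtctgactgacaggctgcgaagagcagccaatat

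The Notch4 window held 3 ETS cores in these forms, and the Dll4 window held 0. The Notch1 window (not printed) also held 0, but it lies wholly inside the GENCODE M21 gene, so it is not a like region. Other forms around the shorter GGAA were not searched, and the printed Dll4 window holds GGAA within TGGAAG. The windows are thus compared for the searched forms only. Over the 11 RefSeq windows of 250 bases before the starts of the 9 genes, 5 held an ETS core, where 39.2% of all 32851 such windows do. The core of the RBPJ motif, TGGGAA on either strand, was in 0 of the 11 windows and in 21.6% of all windows. With no RBPJ core in the 11 windows, no ETS core overlapped one. Such matches describe the sequence only.

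Notch3, the receptor of mural cells around vessels, lies on chromosome 17 from 32120820 to 32166852 on the minus strand. It had 29.9, 11.1 and 15.5 CPM across E14.5 replicates 1, 2 and 3, and 27.4, 22.3 and 19.2 CPM in adult replicates 1, 2 and 3. The adult values lay inside the E14.5 range, which spanned 2.70-fold. The log2 fold change was -0.29 (SE 0.38, 95% interval -1.20 to 0.62, adjusted p = 0.771, edgeR), with -0.80 without E14.5 replicate 1 and -0.02 without E14.5 replicate 2. Of 10 mural markers, 9 were detected and Higd1b had 0 counts, and their sum was 2430 to 3340 CPM in E14.5 cultures and 1290 to 2190 CPM in adult cultures. Des, a gene shared with smooth muscle, made up most of that sum in E14.5, with 1722 to 2625 CPM there and 236 to 1023 CPM in adults. The pericyte genes of the list did not move together. Rgs5, a regulator of G protein signalling, had 240, 15.7 and 72.9 CPM for E14.5 replicates 1, 2 and 3, the same order as Notch3, but 1.93, 7.75 and 1.76 CPM for adult replicates 1, 2 and 3. Cspg4, the NG2 proteoglycan gene, had 19.1, 2.55 and 10.1 CPM for E14.5 replicates 1, 2 and 3, also in the order of Notch3, and 46.3, 57.4 and 67.2 CPM for adult replicates 1, 2 and 3. Pdgfrb, a growth factor receptor gene, had 139 to 228 CPM in E14.5 cultures and 273 to 383 CPM in adult cultures. Rgs5 was thus higher, and Cspg4 and Pdgfrb lower, in every E14.5 library than in any adult one. Kcnj8 and Abcc9 of the same list went the way of Rgs5, at low levels. Kcnj8 had 0.47 to 3.38 CPM in E14.5 cultures and at most 0.316 CPM in adult cultures. Abcc9 had 0.403 to 5.04 CPM in E14.5 cultures and at most 0.303 CPM in adult cultures. Across the E14.5 replicates, Kcnj8 and Pdgfrb also had the order of Notch3, while Des, Mcam, Abcc9, Ndufa4l2 and Cox4i2 did not. In E14.5 replicates 1, 2 and 3, Des had 2158, 2625 and 1722 CPM, and Mcam had 688, 529 and 389 CPM. The part of pericytes in the Notch3 level was not tested.

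Jag1, the ligand gene on chromosome 2 from 137081456 to 137116644 on the minus strand, held 96.4% to 97.9% of the transcripts of the 5 member ligand genes per length in E14.5 and 97.7% to 98.6% in adult libraries, a sum that leaves out Dlk1. Its level was 267, 194 and 152 CPM across E14.5 replicates 1, 2 and 3, and 147, 303 and 158 CPM in adult replicates 1, 2 and 3. E14.5 replicate 1 and adult replicate 2 were the high libraries, so both groups spread over a like range. The log2 fold change of 0.01 had an SE of 0.34 and a 95% interval from -0.82 to 0.84 (adjusted p = 0.990, edgeR), so a level in E14.5 between 0.567 and 1.80 times that of adults remained possible. The ratio of Jag1 to Notch2 per length was 4.70, 4.63 and 2.65 in E14.5 replicates 1, 2 and 3, and 2.02, 6.27 and 2.66 in adult replicates 1, 2 and 3, so the ligand outnumbered its commonest receptor in all 6.

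Jag2, the other Jagged ligand, on chromosome 12 from 112907819 to 112929776 on the minus strand, was low throughout. Its counts were 36, 113 and 41 in E14.5 replicates 1, 2 and 3, and 36, 32 and 20 in adult replicates 1, 2 and 3. The levels were 1.13, 3.51 and 1.27 CPM in E14.5 and 1.36, 1.59 and 0.703 CPM in adult libraries. E14.5 replicate 2 stood apart and the other 5 libraries lay together. The log2 fold change of 0.69 (SE 0.59, 95% interval -0.72 to 2.11, adjusted p = 0.625, edgeR) was -0.02 without E14.5 replicate 2. That library was also apart from the other E14.5 libraries in 7 detected mesothelial markers, with a sum of 785 CPM against 160 and 150 CPM for E14.5 replicates 1 and 3. The adult libraries had 637 to 1510 CPM of those markers with no high Jag2. The part of mesothelial cells in the Jag2 level was not tested.

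Dll1, a Delta-like ligand on chromosome 17 from 15367354 to 15376872 on the minus strand, had 15, 0 and 15 counts in E14.5 replicates 1, 2 and 3, and 2, 3 and 4 counts in adult replicates 1, 2 and 3. In CPM these were 0.469, 0 and 0.463 in E14.5 and 0.0757, 0.149 and 0.141 in adult libraries. Replicates 1 and 3 of E14.5 lay above all adult libraries and replicate 2 below them. Without a filter on low counts the log2 fold change was 1.33 (adjusted p = 0.636, edgeR), and E14.5 libraries on both sides of the adult ones.

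Dlk2 lies on chromosome 17 from 46297421 to 46303271 on the plus strand. It had 1.44, 0.652 and 1.33 CPM across E14.5 replicates 1, 2 and 3, and 0.644, 0.646 and 0.738 CPM in adult replicates 1, 2 and 3. As for Dll1, E14.5 replicates 1 and 3 were above every adult library, and E14.5 replicate 2 lay within the adult range. The log2 fold change was 0.75 (SE 0.42, 95% interval -0.27 to 1.77, adjusted p = 0.434, edgeR) and lay between 0.53 and 1.03 when 1 library was left out. The gene overlaps the transporter gene Abcc10 on the opposite strand, so its counts rest on the strand of the reads. In the unstranded column its log2 fold change was 0.87.

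**Figure D4:**
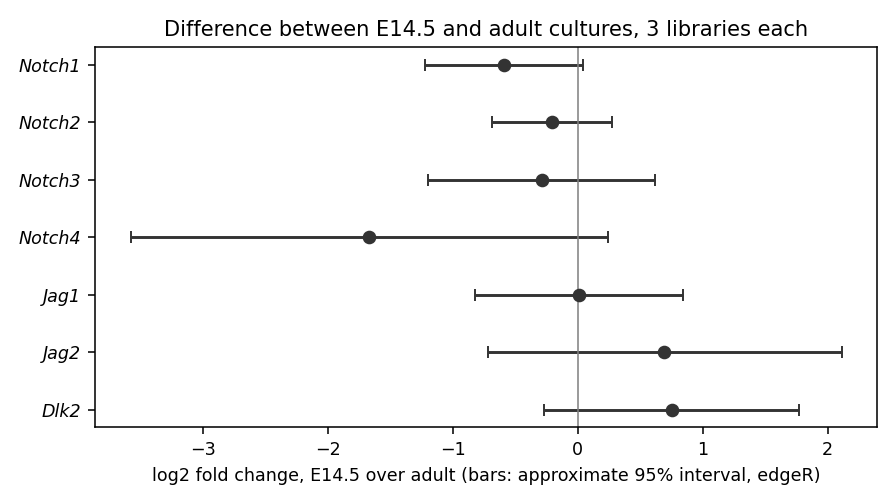
Log2 fold change of E14.5 over adult for the 7 members that passed the filter on low counts, with approximate 95% intervals from the edgeR fit (3 libraries per group). Every interval spans 0, the narrowest for Notch2 (-0.69 to 0.27) and the widest for Notch4 (-3.58 to 0.24).

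Dlk1, the relative of Dlk2 that acts as a non-canonical ligand, was no member but sets the scale for the ligands. It measured 54.6, 11.9 and 73.2 CPM per kb in E14.5 replicates 1, 2 and 3, against 0.752, 0.550 and 0.558 CPM per kb in adult replicates 1, 2 and 3. Per length it reached 1.15, 0.343 and 2.70 times the Jag1 level in the E14.5 libraries and 0.0286, 0.0102 and 0.0199 times in the adult libraries. Dlk1 therefore matched or passed Jag1 in E14.5 replicates 1 and 3 and stayed below it in E14.5 replicate 2 and all adult libraries. Its log2 fold change of 6.23 (SE 0.76) passed the edgeR test with an adjusted p of 0.0337. The call was lost when E14.5 replicate 1 (adjusted p = 0.112) or adult replicate 1, 2 or 3 was left out (adjusted p = 0.0898, 0.0925 and 0.181), with limma-voom (0.118) and with a replicate block by title prefix (0.0938). The log2 fold change in these fits stayed between 5.87 and 6.39. In all 3 E14.5 libraries Dlk1 was higher than in any adult one, while the log2 fold change of Dlk2 was 0.75 with overlapping groups. The difference between those changes was not tested.

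Outside the members, 69 further genes of the pathway were listed by role, of which 68 had a row and 65 were tested. Of these, 1 rose (Dlk1), 0 fell, and the median log2 fold change was -0.03. Their groups did not overlap for 20, or 30.8%, against 24.1% of all tested genes, 7 of them higher and 13 lower in E14.5. At an unadjusted p under 0.05 there were 7 higher and 10 lower, DESeq2 called 12 and limma-voom 0. Over all genes tested, the unadjusted p was under 0.05 for 17.9% and DESeq2 called 10.6%. These lists were drawn up with results of these libraries known.

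Of 8 tested genes for glycosylation of the receptors, which takes place in the secretory pathway, 0 passed. Mfng, a Fringe enzyme that adds sugar to the receptors, had 0.688, 0.962 and 5.07 CPM across E14.5 replicates 1, 2 and 3, and 0.114, 0.199 and 0.0352 CPM in adult replicates 1, 2 and 3. Its groups did not overlap, and its highest library, E14.5 replicate 3, also had the highest leukocyte markers. Mfng had a log2 fold change of 4.29 (SE 1.08, adjusted p = 0.124, edgeR), and DESeq2 gave an adjusted p of 0.00203. Without E14.5 replicate 3 it was 2.85. Gxylt2, a xylosyltransferase gene, had 2.22, 0.869 and 0.618 CPM across E14.5 replicates 1, 2 and 3, and 2.04, 49.5 and 12.3 CPM in adult replicates 1, 2 and 3, which is high in the same adult libraries as Notch4. Its log2 fold change of -4.10 (SE 1.20, adjusted p = 0.154 by edgeR and 0.000565 by DESeq2) was -2.53 without adult replicate 2. Poglut1, for a glucosyltransferase, was the most abundant of the list, at 59.2 ± 10.5 CPM in E14.5 cultures and 65.6 ± 3.54 CPM in adult cultures (SD, n = 3 each).

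Among 9 tested genes of ligand ubiquitination and endocytosis 0 passed. The Neuralized-type ligase gene Neurl1b had a log2 fold change of -1.69 (adjusted p = 0.214, edgeR) and Neurl3 one of 1.67 (adjusted p = 0.378). Neurl3 had 24.7 CPM in E14.5 replicate 3 and 1.93 to 5.31 CPM in the other libraries, and without that library its log2 fold change was 0.27. The dynamin gene Dnm2 was the most abundant, at 154 ± 9.38 CPM in E14.5 cultures and 134 ± 6.66 CPM in adult cultures.

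Of 10 tested cleavage genes 0 passed, and their log2 fold changes ran from -0.32 to 0.98 with a median of 0.09. Adam10, the sheddase that makes the first cut after ligand binding, had 227 ± 21.2 CPM in E14.5 cultures and 244 ± 42.2 CPM in adult cultures (SD, n = 3 each). Its log2 fold change of -0.10 had a 95% interval from -0.48 to 0.28. The gamma-secretase subunit genes Aph1b and Aph1c had the largest values of this list, -0.32 and 0.98, with adjusted p of 0.553 and 0.536 (edgeR). Without E14.5 replicate 3, the highest library for Aph1c at 5.22 CPM, its value was 0.17. Aph1b and Aph1c are close paralogues, so reads shared between them may not be counted.

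In the nucleus, 0 of 8 genes of the activating complex passed. Maml2, a Mastermind-like co-activator, had 27.5, 18.7 and 25.3 CPM across E14.5 replicates 1, 2 and 3, and 42.7, 46.1 and 40.9 CPM in adult replicates 1, 2 and 3. The groups did not overlap, with a log2 fold change of -0.86 (SE 0.17, adjusted p = 0.0799, edgeR). Maml2 passed without E14.5 replicate 2, the library farthest from the adults, at a log2 fold change of -0.71 and an adjusted p of 0.0422. By DESeq2 its adjusted p was 0.000664. Kat2b, an acetyltransferase gene, had 37.0 ± 2.20 CPM in E14.5 cultures and 54.3 ± 4.07 CPM in adult cultures (log2 fold change -0.55, adjusted p = 0.0844 by edgeR and 0.000667 by DESeq2). Snw1, a co-activator also of splicing, measured 67.1 ± 2.59 CPM in E14.5 cultures and 67.7 ± 4.56 CPM in adult cultures. Of 8 co-repressor genes 0 passed, and Tle1, a Groucho-type co-repressor, had a log2 fold change of 0.44 (adjusted p = 0.415, edgeR).

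Of 10 tested genes of receptor turnover 0 passed. Dtx4, a Deltex ubiquitin ligase gene, had 24.0, 7.70 and 48.7 CPM across E14.5 replicates 1, 2 and 3, and 7.0, 5.21 and 5.98 CPM in adult replicates 1, 2 and 3. All E14.5 libraries were above the adult ones, with a log2 fold change of 2.14 (SE 0.63, adjusted p = 0.155 by edgeR and 0.00545 by DESeq2). Leaving out E14.5 replicate 3 gave 1.39. Without E14.5 replicate 2 Dtx4 passed, at a log2 fold change of 2.58 and an adjusted p of 0.0291. Its relative Dtx1 had a log2 fold change of 1.21 (adjusted p = 0.485), and the ligase gene Nedd4 was the most abundant of the list at 1790 ± 245 CPM in E14.5 cultures and 2280 ± 86.1 CPM in adult cultures.

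The direct target genes, which serve as a readout of signalling, had 0 of 5 tested genes past the test and a median log2 fold change of -0.65. Hes1, a repressor and the best known target, had 50.6, 47.6 and 37.2 CPM across E14.5 replicates 1, 2 and 3, and 66.7, 58.0 and 58.7 CPM in adult replicates 1, 2 and 3. The groups of Hes1 did not overlap, and its log2 fold change was -0.44 (SE 0.15, 95% interval -0.79 to -0.08, adjusted p = 0.195, edgeR). Hey1, another repressor, had 2.12 ± 0.920 CPM in E14.5 cultures and 4.14 ± 0.814 CPM in adult cultures (log2 fold change -0.96, adjusted p = 0.318). Nrarp, a feedback inhibitor of the receptors, had 0.125, 0.217 and 0.216 CPM across E14.5 replicates 1, 2 and 3, and 1.25, 7.95 and 2.71 CPM in adult replicates 1, 2 and 3. Adult replicate 2 was the highest library for Nrarp, as for Notch4, Notch1 and the endothelial markers. Nrarp had a log2 fold change of -4.38 (SE 0.82, adjusted p = 0.0755, edgeR), and DESeq2 gave an adjusted p of 8.09e-06. Its groups did not overlap. The log2 fold change was -3.38 without adult replicate 2 and -2.73 without adult replicates 2 and 3, the latter with a single adult library. Among non-canonical ligands other than Dlk1, Cntn6, a contactin gene, had a log2 fold change of 3.57 (adjusted p = 0.140 by edgeR and 0.0235 by DESeq2), and the matrix gene Postn was the most abundant at 799 ± 614 CPM in E14.5 cultures and 1230 ± 332 CPM in adult cultures.

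**Figure D5:**
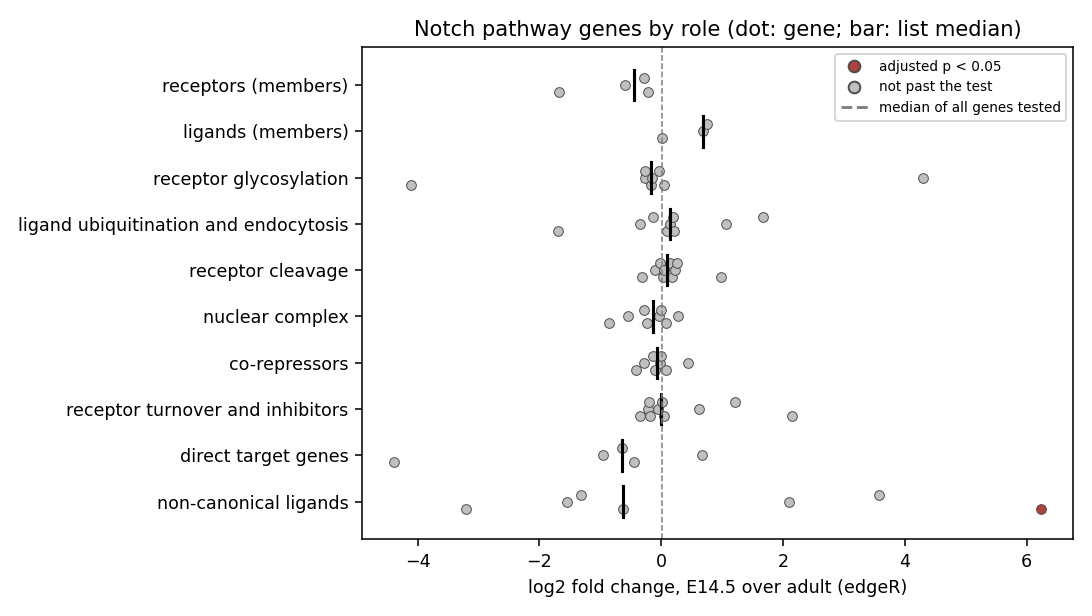
Log2 fold change of E14.5 over adult (edgeR) for the tested receptors, ligands and other Notch pathway genes, 1 dot per gene and a bar at each list's median, with a dashed line at the median of all genes tested (0.01). Only Dlk1, at 6.23 in the non-canonical ligand list, is past an adjusted p of 0.05.

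Profiles over the 6 libraries were compared with those of 8523 named genes of at least 10 CPM for the 4 members whose log2 CPM spanned at least 2. The measure was the root mean square difference between log2 CPM profiles after each was centred on its own mean, so a small value means a like pattern. Notch4 was closest to Gdf15, Edn1 and Col4a3, at 0.38, 0.39 and 0.41. Edn1, the endothelin 1 gene, had 42.6, 30.8 and 17.2 CPM across E14.5 replicates 1, 2 and 3. It had 31.5, 254 and 88.1 CPM in adult replicates 1, 2 and 3. Adult replicates 2 and 3 were thus its highest libraries, as for Notch4 and Col4a3. Gdf15, the closest gene, was highest in adult replicate 2, at 64.2 CPM. Its level in E14.5 replicate 1, 17.4 CPM, lay above that in adult replicate 3, 13.6 CPM. Jag2 was closest to Bcar3, Tinagl1 and Sntg1, at 0.27, 0.29 and 0.32, all highest in E14.5 replicate 2. Dll1 was closest to Dnm3os, Loxl4 and Dkk3, at 0.16, 0.27 and 0.29. Dnm3os, a non-coding RNA gene, had 38.4, 3.91 and 28.2 CPM across E14.5 replicates 1, 2 and 3, and 9.58, 12.7 and 14.9 CPM in adult replicates 1, 2 and 3, low in E14.5 replicate 2 as Dll1 was. Dll4 was closest to Pam, Ninl and Ctnnal1, at 0.23, 0.30 and 0.33. The profiles of Dll1 and Dll4 rest on a few counts per library and on the prior count of 2, so their likeness is imprecise. These genes were picked from a large set over 6 libraries, and the values describe those libraries only.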

How the data were processed

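The deposited values are whole-number read counts for each gene, not normalized by the authors, with an unstranded, a forward and a reverse count column in each library's table. The submitters' processing notes name STAR and the build mm10. The annotation and the treatment of shared reads were not given in the sources used here. Counts were taken from the reverse-strand column, since forward counts made up 1.33% to 1.69% of stranded counts. Rows of unassigned reads, 17.4% to 19.8% per library, were left out. Replicates were numbered in accession order.

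E14.5 was compared with adult in R 4.3.3 with edgeR 4.0.16 (filterByExpr, TMM, robust quasi-likelihood fit, Benjamini-Hochberg adjustment over all genes tested, threshold 0.05). SEs and 95% intervals are approximate, from the F statistic. The steps were tested on simulated data. Library pairs of each group differed by far more than sampling noise. Alternatives were other scalings and filters, DESeq2 1.42.0, limma-voom (limma 3.58.1), the unstranded column, a block and left-out libraries. The members, lists, motifs and tests were chosen with earlier results of these data known. The text names the members, each called pathway gene, the 2 largest changes per list with at least 1 CPM and the most abundant gene, except 1 gene that is not reported here. Single marker genes of other cell types were named after their values were seen. Promoter windows are RefSeq's on GRCm38.p6, whose coordinates are those of mm10, and all 9 symbols matched.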

Additional observations from a re-analysis of the deposited data

How the results depend on the processing

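Of 118 values of the 7 tested members under the alternatives, 0 passed the threshold, 112 kept their direction and 6 did not. Notch1 was 0.03 and Notch4 0.21 without adult replicates 2 and 3, Jag1 was -0.23, -0.17 and -0.14 when E14.5 replicate 1, adult replicate 1 or adult replicate 3 was left out, and Jag2 was -0.02 when E14.5 replicate 2 was. The cause was not tested. Over all alternatives Notch1 lay between -0.83 and 0.03, Notch4 between -2.22 and 0.21, Jag1 between -0.23 and 0.59, and Jag2 between -0.02 and 1.16. Dlk2 has no value under the stricter filter, which left it out. The count of genes called over the whole table, 146, was 1427 with DESeq2, 3 to 471 with 1 library left out (3 without E14.5 replicate 1 or adult replicate 3, 38 and 46 without adult replicates 1 and 2, 471 without E14.5 replicate 2), 0 without adult replicates 2 and 3, and 36 without adult replicate 2 and E14.5 replicate 3. With a replicate block by title prefix it was 2. Over the tested genes, libraries sharing a prefix did not deviate together from their group means (correlations of -0.14, -0.23 and -0.088). These correlations rest on 3 libraries per group. The forward share of stranded counts did go by prefix. It was 1.49%, 1.68% and 1.34% in E14.5 replicates 1, 2 and 3, and 1.54%, 1.69% and 1.33% in adult replicates 1, 2 and 3. Whether the prefix marks a shared batch was not tested, and the main fit does not use it.

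Without division by length, the mean share of Jag1 among ligands was 98.3% in E14.5 and 98.9% in adults, that of Dlk2 0.572% in E14.5 and 0.368% in adults, that of Dll1 in adults 0.0626%, and that of Notch3 among receptors in adults 14.2%. For the 23 named pathway genes, 387 values gave 8 weaker (all Dlk1), 9 stronger (Mfng, Gxylt2, Maml2, Kat2b, Dtx4, Nrarp and Cntn6 with DESeq2, and Maml2 and Dtx4 without E14.5 replicate 2) and 8 reversed. Those reversed were Adam10 (0.04 and 0.05, over all alternatives -0.18 to 0.05), Aph1b (0.09, over all -0.49 to 0.09) and Snw1 (0.02 with upper-quartile scaling, 0.03 with library size alone, over all -0.07 to 0.03). Depth limits Dll1, Dll4, Dlk2 and Jag2, with at most 113 counts in any library.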

Other observations

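Counts on the strand opposite to Notch1 were a larger share of its stranded counts than over all genes. They were 14, 29 and 17 counts in E14.5 replicates 1, 2 and 3, or 3.27%, 5.92% and 4.05%. In adult replicates 1, 2 and 3 they were 25, 14 and 22 counts, or 6.85%, 2.64% and 3.51%. The share over all genes was 1.33% to 1.69% per library, and for Notch2 it was 0.585% to 0.98% in E14.5 and 0.536% to 0.817% in adult libraries. For Notch4 the share was 2.15% to 4.35% in E14.5 and 1.68% to 3.0% in adult libraries. That was also above the share over all genes in each library, on at most 7 opposite-strand counts. GENCODE M21 places 2 transcripts of other genes, 0610009E02Rik and Gm13568, on the opposite strand within the span of Notch1, and the count tables used here have no row for either.

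Dlk2 had 1, 0 and 7 counts on the opposite strand in E14.5 replicates 1, 2 and 3 and 0 in each adult library, with Abcc10 on that strand.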
